A study of Mus musculus with 3 samples.

Results

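Myeloid C-type lectin receptors were followed in the bone marrow (BM) of mice that received LECT2, leukocyte cell-derived chemotaxin 2, a secreted protein made mainly by the liver. The 9 genes were Clec4d, Clec4e, Clec4n, Clec7a, Clec5a, Clec12a, Clec4a1, Clec4a2 and Clec4a3. They were taken by gene symbol, as a list drawn up with earlier results of these data known. Each had 1 row among the 17250 gene names of the deposited tables. Cells flushed from the marrow were collected from C57BL/6 mice of 6 to 8 weeks, with no genetic change named. The study's supplement calls the sequenced cells BM mononuclear cells, a preparation that would hold fewer mature neutrophils, while the labels and methods name no such step. Recombinant LECT2 had been given under the skin at 300 μg per kg body weight once a day for 3 days or for 5 days. The group of 0 days had no LECT2 injection, and the labels name no vehicle for it. RNA was sequenced as 1 library per time point, so no comparison has a replicate check, and how many mice each library holds is not given in the sources used here.

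These receptors are surface proteins of neutrophils, monocytes, macrophages and dendritic cells that bind sugars and lipids of fungi and mycobacteria, or products of dead cells. The activating members signal through an ITAM, a phosphorylation motif that recruits the kinase Syk. Clec7a carries a single copy of its core in its own tail, Clec4d, Clec4e and Clec4n rely on the Fc receptor gamma chain (Fcer1g), and Clec5a relies on the adaptors DAP12 (Tyrobp) and DAP10 (Hcst). Syk then signals through CARD9, BCL10 and MALT1 to cytokine genes. Clec12a and Clec4a2 carry an inhibitory motif, the ITIM, that recruits phosphatases. Clec4a1 and Clec4a3 are close relatives of Clec4a2 without that motif.

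All 9 genes lie on mouse chromosome 6. In the GENCODE annotation of GRCm38, which is another build than the mm8 named in the submitters' notes, 9 Clec4 genes fill 368 kb, from chr6:122921848 to chr6:123289870, in the order Clec4a1, Clec4a3, Clec4a4, Clec4b1, Clec4a2, Clec4b2, Clec4n, Clec4d and Clec4e. The ends of Clec4d and Clec4e face each other 6.52 kb apart, and Clec4n ends 15.1 kb before Clec4d. Clec5a (chr6:40574894-40585821), Clec12a (chr6:129342691-129365303) and Clec7a (chr6:129461591-129472779) lie elsewhere on the chromosome. That annotation lists 8 of the genes as protein coding and Clec7a as a polymorphic pseudogene. No exon of a member overlaps an exon of another gene. Of the 50-base windows of the longest transcript, 8.19% of those of Clec4a2 also occur in other genes, most of them in Clec4a4 and Clec4b1, so its reads are the least certain. That share was 0.812% for Clec4n, 0.691% for Clec12a and 0 for the other 6.

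The stretches before the start sites are shown for the 2 members with the largest decrease at 5 days and the 2 that were higher at each later time point. They are the 250 bases upstream of the first RefSeq start site in GRCm38.p6, read on the strand of the gene, and capitals mark matches to 6 motifs. The motifs, searched on both strands, were AP-1 (TGANTCA, in 6.749% of 32851 such windows of all genes), C/EBP (TTGCNNAA, 9.564%), PU.1 (GAGGAA, 23.253%), NF-kB (7.251%), the TATA box (TATAAA, 12.368%) and CRE (TGACGTCA, 1.546%). The windows are chr6:123261857-123262106 on the plus strand for Clec4d, chr6:123289872-123290121 on the minus strand for Clec4e, chr6:122921598-122921847 on the plus strand for Clec4a1 and chr6:122952265-122952514 on the plus strand for Clec4a3.
Clec4d: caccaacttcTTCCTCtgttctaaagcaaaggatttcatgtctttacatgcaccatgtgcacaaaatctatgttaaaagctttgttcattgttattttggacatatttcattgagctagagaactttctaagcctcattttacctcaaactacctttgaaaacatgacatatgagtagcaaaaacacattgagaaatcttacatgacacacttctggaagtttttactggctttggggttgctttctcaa
Clec4e: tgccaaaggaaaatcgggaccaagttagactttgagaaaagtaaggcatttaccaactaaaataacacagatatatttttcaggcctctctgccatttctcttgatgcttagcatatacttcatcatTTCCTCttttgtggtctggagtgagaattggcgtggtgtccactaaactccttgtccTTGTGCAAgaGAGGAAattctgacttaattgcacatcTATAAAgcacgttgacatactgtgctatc
Clec4a1: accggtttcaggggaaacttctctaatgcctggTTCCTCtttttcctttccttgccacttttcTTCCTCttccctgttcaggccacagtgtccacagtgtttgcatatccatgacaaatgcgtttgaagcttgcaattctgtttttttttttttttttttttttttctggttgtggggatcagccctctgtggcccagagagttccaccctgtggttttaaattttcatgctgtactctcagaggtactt
Clec4a3: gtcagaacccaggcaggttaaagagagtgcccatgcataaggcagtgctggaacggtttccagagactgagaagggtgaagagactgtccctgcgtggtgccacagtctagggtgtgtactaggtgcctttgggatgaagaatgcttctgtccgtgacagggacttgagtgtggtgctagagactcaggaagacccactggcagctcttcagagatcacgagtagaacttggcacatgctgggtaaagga
Counted from the start site, the Clec4e window held C/EBP letters at -66, PU.1 letters at -123 and -56 and a TATA box at -29. The Clec4d window held PU.1 letters at -240 and no other searched motif. PU.1 letters stood at -217 and -187 before Clec4a1, and none of the 6 motifs was found in the window shown for Clec4a3. RefSeq lists a second start site for Clec4a3, whose window held PU.1 letters at -50. The bases checked just after the first start site of Clec4a3 were not found in its GENCODE transcripts, while those after the second were. Clec4d and Clec4e thus shared 1 searched motif, at different distances. A match shows only that these letters are present. Of the 9 members, 8 had a RefSeq window, and Clec4n had none.

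Levels are given as RPKM, reads per kilobase of transcript normalised to library size, which can be compared between genes. The libraries held 15146983 to 15523952 reads on genes, and intervals below are 95% and cover counting error only. Clec12a, also known as MICL, had the highest level of the 9 genes in each library. At 0 days it was followed by Clec4e, Clec7a, Clec4a2, Clec4d, Clec5a, Clec4a1, Clec4a3 and Clec4n, and the order was the same at 3 days. At 5 days it ran Clec12a, Clec7a, Clec4a1, Clec4a2, Clec5a, Clec4a3, Clec4e, Clec4d and Clec4n, so that Clec4e had moved from the second place to the seventh. The intervals of neighbours overlapped for Clec7a and Clec4a2 at 0 days, for Clec4d and Clec5a at 3 days, and for Clec7a and Clec4a1 and Clec5a and Clec4a3 at 5 days. The summed level of the 9 genes went from 615 RPKM to 599 RPKM by 3 days and to 382 RPKM by 5 days.

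**Figure D1:**
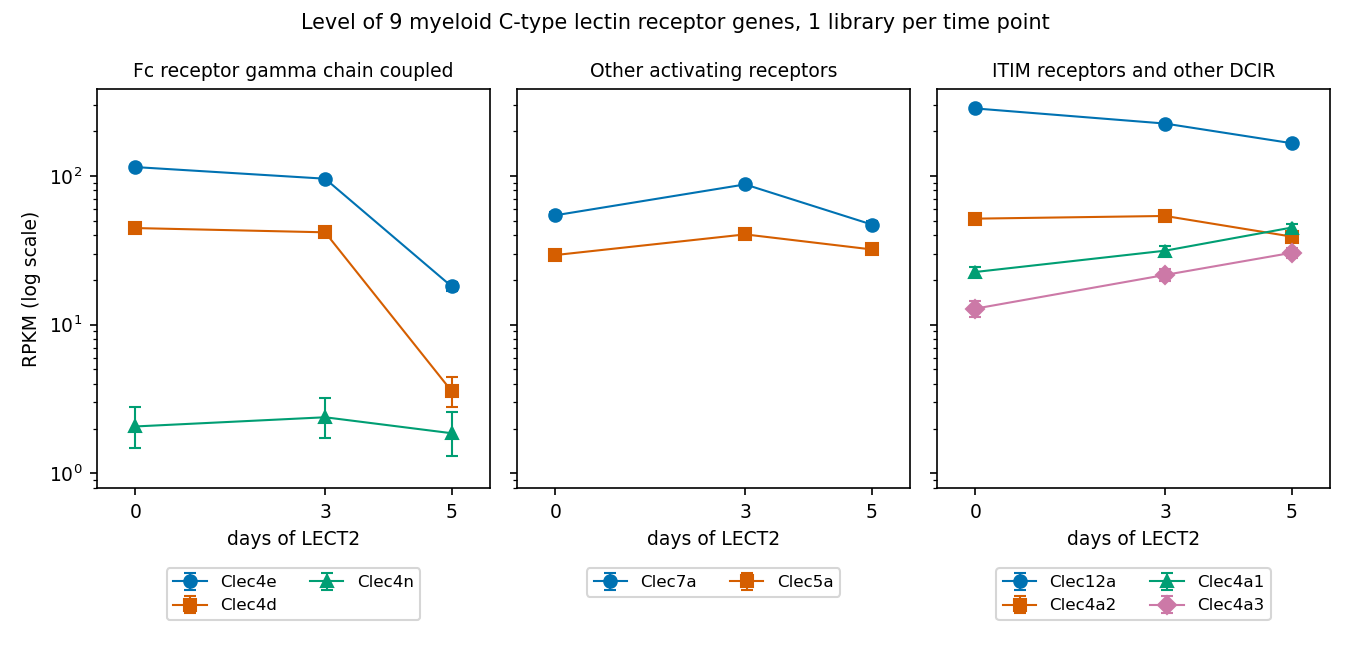
Level of each receptor gene (RPKM, log axis) against days of LECT2, 1 library per time point, with 95% counting intervals as bars. Clec4e and Clec4d lie at 95.6 and 41.7 RPKM at 3 days and at 18.04 and 3.57 RPKM at 5 days, while Clec4a1 and Clec4a3 are higher at each later time point.

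The receptors that pair with the Fc receptor gamma chain lost most of their summed level between 3 and 5 days. In such libraries of mixed marrow cells fewer cells of a type and less RNA per cell cannot be told apart. Clec4e, or Mincle, which binds mycobacterial glycolipid and a protein released by dead cells, had 114 RPKM at 0 days (4475 reads), 95.6 RPKM at 3 days (3647 reads) and 18.04 RPKM at 5 days (705 reads). Clec4d, or MCL, a partner of Mincle at the cell surface, had 44.6, 41.7 and 3.57 RPKM at 0, 3 and 5 days, from 924, 844 and 74 reads. Both genes were near their starting level at 3 days and low at 5 days. Clec4n, or Dectin-2, a receptor for fungal mannans, did not share that decrease, with 2.07, 2.39 and 1.86 RPKM from 40, 45 and 36 reads.

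On the log2 scale, with 0.1 RPKM added to each level, Clec4d fell by 3.60 from 0 to 5 days (interval -4.00 to -3.30), which is 12.2-fold. Clec4e fell by 2.66 (interval -2.78 to -2.55), or 6.31-fold. Of the 11497 genes with at least 1 RPKM in either library, 42 had a lower ratio than Clec4d and 90 a lower ratio than Clec4e. The ratio of the level of Clec4e to that of Clec4d was 2.57 before treatment, 2.29 at 3 days and 5.05 at 5 days. Most of this lay between 3 and 5 days, where the log2 ratio was -3.51 for Clec4d and -2.40 for Clec4e. From 0 to 3 days the ratio was -0.26 for Clec4e (interval -0.32 to -0.20). It was -0.09 for Clec4d, whose interval held 0 (-0.23 to 0.04) and whose sign turned when the trend of the ratios on gene length was removed (0.15). For Clec4n the intervals held 0 in all 3 comparisons. Its ratio at 5 against 0 days was -0.14 (interval -0.84 to 0.54), and so its interval does not reach the ratios of Clec4d and Clec4e. The sum of the 3 genes was 161, 140 and 23.5 RPKM.

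The genes of the cluster thus differed in direction. Clec4a1 and Clec4a3 at one end were higher at 5 days than at 0 days, and Clec4d and Clec4e at the other end were lower. Of the neighbours that are not among the 9 receptors, Clec4b1, a relative that also pairs with the Fc receptor gamma chain, had 1.64, 1.18 and 2.38 RPKM, with intervals that held 0 against 0 days. Clec4b2 had 2.41, 4.43 and 4.26 RPKM and was higher at 5 than at 0 days by 0.80 (interval 0.24 to 1.43). Clec4a4 had 4, 4 and 2 reads, too few for a ratio at 5 days.

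**Figure D2:**
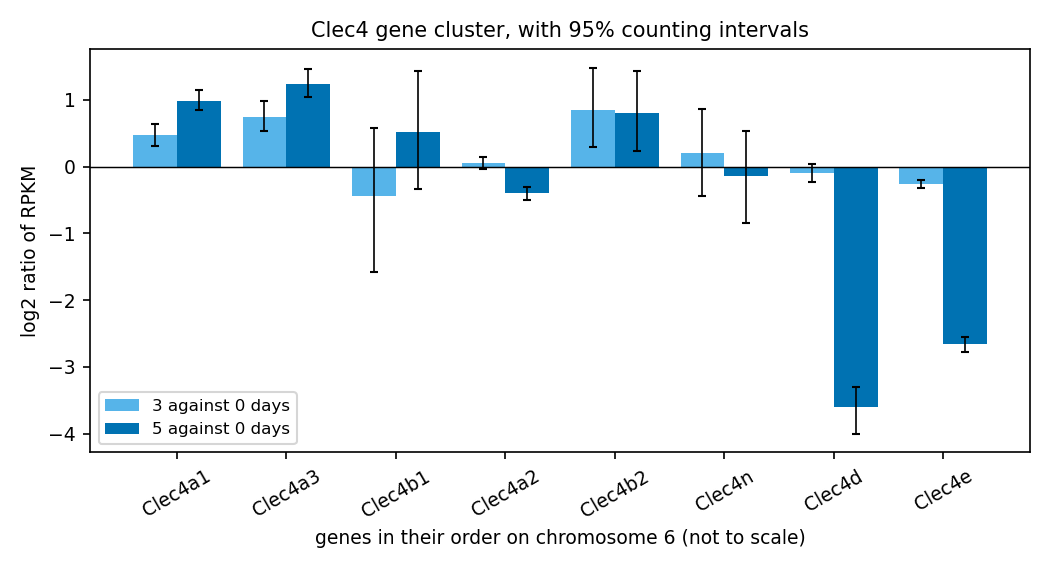
log2 ratio of RPKM against 0 days (bars, 3 days light and 5 days dark, with 95% counting intervals) for 8 genes of the Clec4 cluster in chromosomal order, not to scale. The dark bars stand at 0.99 and 1.24 for Clec4a1 and Clec4a3 at the left and at -3.60 and -2.66 for Clec4d and Clec4e at the right. Clec4a4 is left out because of its low read number.

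The other activating receptors had their highest level at 3 days. Clec7a, or Dectin-1, the receptor for fungal beta-glucan, had 54.3 RPKM at 0 days (1918 reads), 87.5 RPKM at 3 days (3018 reads) and 47.0 RPKM at 5 days (1662 reads). Clec5a, or MDL-1, had 29.3, 40.4 and 32.0 RPKM from 1740, 2337 and 1897 reads. The log2 ratio at 3 against 0 days was 0.69 for Clec7a (interval 0.61 to 0.77) and 0.46 for Clec5a (interval 0.37 to 0.55). When the trend on gene length was removed, it was 0.66 for Clec7a but 0.18 for Clec5a. From 3 to 5 days the ratio of deposited levels was -0.89 for Clec7a and -0.33 for Clec5a. Neither gene passed 2-fold in any comparison of the deposited levels. Clec7a passed it from 3 to 5 days, at -1.12, when the libraries were scaled by TMM, a method that centres the ratios of most genes. At 5 against 0 days Clec7a stood at -0.21 (interval -0.30 to -0.11), and Clec5a at 0.13 (interval 0.03 to 0.22) with deposited levels but at -0.18 with TMM and at -0.43 without the length trend, so its direction at 5 days depends on the scaling.

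The ITIM receptors were lower at 5 days than at 0 days. Clec12a had 283, 224 and 165 RPKM from 9778, 7549 and 5704 reads, lower at each later time point. Its log2 ratio was -0.34 at 3 against 0 days (interval -0.38 to -0.29) and -0.78 at 5 against 0 days (interval -0.82 to -0.73), and -1.09 at 5 days with TMM, past 2-fold. Clec4a2, or DCIR1, an inhibitory receptor best known from dendritic cells, had 51.5, 53.7 and 39.0 RPKM from 2042, 2077 and 1546 reads. It was lower at 5 days by a log2 ratio of -0.40 (interval -0.50 to -0.30). At 3 against 0 days its ratio of 0.06 had an interval that held 0 and turned to -0.02 with TMM. Clec12a alone made up 46.1%, 37.5% and 43.3% of the summed level of the 9 genes at the 3 time points in turn.

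The relatives of Clec4a2 without the ITIM, Clec4a1 (DCIR4) and Clec4a3 (DCIR3), were higher at each later time point. Clec4a1 had 22.6 RPKM at 0 days (558 reads), 31.4 RPKM at 3 days (757 reads) and 44.9 RPKM at 5 days (1109 reads). Clec4a3 had 12.8, 21.6 and 30.4 RPKM from 264, 434 and 626 reads. The log2 ratio at 5 against 0 days was 0.99 for Clec4a1 (interval 0.84 to 1.14) and 1.24 for Clec4a3 (interval 1.04 to 1.46). At 3 against 0 days it was 0.47 and 0.75, and at 5 against 3 days 0.51 and 0.49, and none of these 4 intervals held 0. With TMM the ratios at 5 days were smaller, 0.68 and 0.93. The sum of these 2 genes was 35.4, 53.0 and 75.3 RPKM, or 5.75%, 8.85% and 19.7% of the summed level of all 9.

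A gene was counted as higher or lower when it differed at least 2-fold and had at least 1 RPKM in either library. At 3 against 0 days 0 of the 9 receptors were higher and 0 lower, beside 4.08% and 2.41% of all genes tested. At 5 against 0 days 1 was higher, Clec4a3, and 2 were lower, Clec4d and Clec4e, beside 15.5% and 5.91% of all genes. The call of Clec4a3 ended with TMM and with median-of-ratios scaling, and the number lower became 3, with Clec12a, under both of these and without the length trend. At 5 against 3 days 0 were higher and 2 lower, again Clec4d and Clec4e, beside 1.95% and 3.45%. The median log2 ratio of the 9 genes was 0.20, -0.21 and -0.44 in these comparisons, whereas that of the 11144 genes averaging 1 RPKM or more was 0.10, 0.31 and 0.25. Relative to that median, Clec4d fell by 3.92 and Clec4e by 2.97 at 5 against 0 days, Clec12a stood at -1.09, Clec4a1 at 0.68 and Clec4a3 at 0.93. The comparisons share libraries, and with 1 library each none of these differences could be set against the spread between mice.

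**Figure D3:**
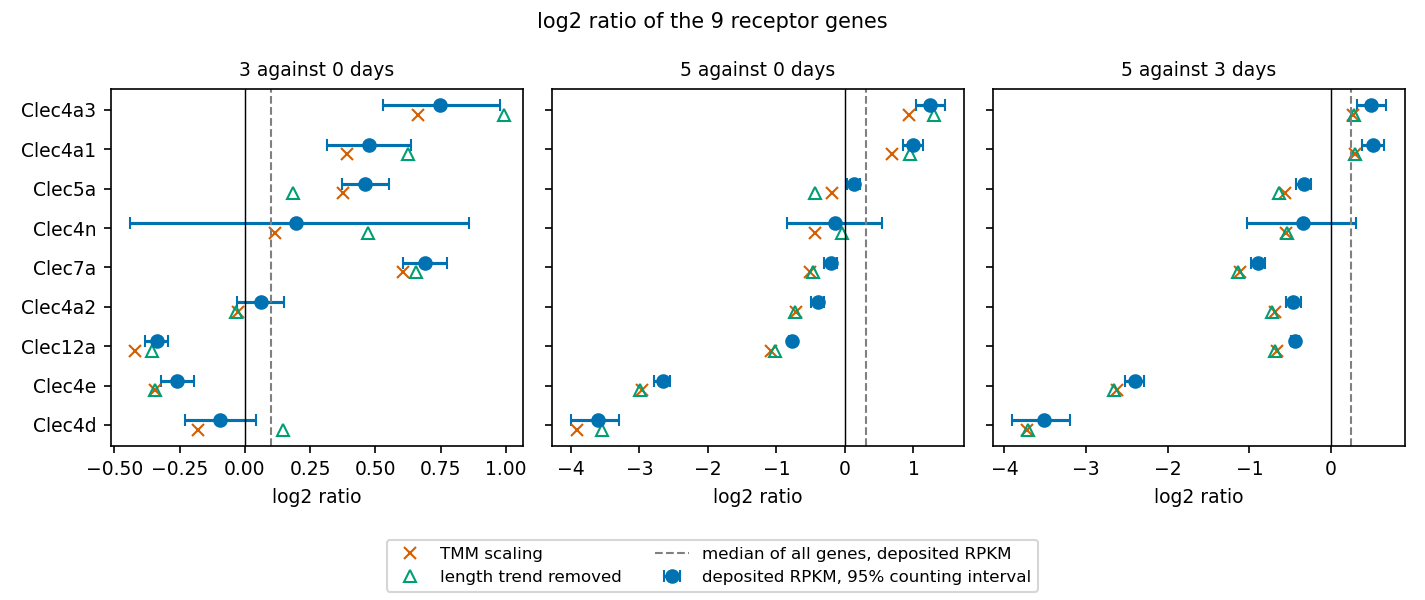
log2 ratio of each receptor gene in the 3 comparisons, from deposited RPKM (circles, with 95% counting intervals), with TMM scaling (crosses) and with the trend on gene length removed (triangles). The scale of the horizontal axis differs between panels, and the dashed line is the median of 11144 genes. Clec4d and Clec4e lie at -3.60 and -2.66 at 5 against 0 days, apart from the other 7, which lie between -0.78 and 1.24.

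Log2 ratios moved with gene length in these libraries, so each member was also set beside genes of its own length. Clec4d is listed with 1336 bases. The 655 genes within 10% of that length had a median of -0.04 at 5 against 0 days, and 5% of them lay below -1.41. The corresponding values for Clec4e, listed with 2519 bases, were 0.35 and -0.81 over 1278 genes. Both members lay below these bounds. Clec4a3, with 1328 bases, stood above the value that 95% of 649 such genes did not reach, 0.87, and Clec4a1, with 1592 bases and a ratio of 0.99, stood below its value of 1.06.

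Markers of BM cell types moved with the receptors. Summed over 11 late neutrophil markers, of which S100a9 and S100a8 were the most abundant, the level was 149807, 115887 and 41359 RPKM, and all 10 markers that could be tested were at least 2-fold lower at 5 than at 0 days (9 of 10 without the length trend). Of the 11 markers, 1 (Retnlg) had a lower ratio than Clec4d and 1 a lower ratio than Clec4e. At least 10 of the 11 had a lower ratio than each of the other receptors. The sum over 7 monocyte markers, led by Ly6c2 and F13a1, was 1199, 1561 and 2192 RPKM, with 5 of 7 at least 2-fold higher at 5 days. The sum over 10 macrophage markers, led by Mpeg1 and Cd68, was 397, 527 and 679 RPKM, with 5 of 10 at least 2-fold higher at 5 against 0 days, but 2 of 10 with TMM and 3 of 10 without the length trend. C1qa, C1qb and C1qc of that list had ratios of -0.20, -0.05 and -0.06. Promyelocyte markers (Elane, Mpo, Prtn3 and Ctsg) summed to 2101, 1974 and 3475 RPKM. Of these 4, 1 was at least 2-fold higher at 5 against 0 days, Mpo, with 435 and 1237 RPKM. The ratios of Elane, Prtn3 and Ctsg were 0.04, 0.36 and 0.14 with TMM and 0.63, 0.91 and 0.68 without the length trend. From 0 to 5 days the sums over dendritic cell, B cell, T and NK cell and erythroid markers went to 55.4%, 69.2%, 85.2% and 31.8% of their starting level, and single genes carried much of this. At least 2-fold lower were 1 of 5 dendritic cell markers tested (Ccr7, 66.5 to 12.8 RPKM), 0 of 6 B cell markers, 1 of 6 T and NK cell markers (Cd3d) and 2 of 6 erythroid markers (Hbb-b1 and Hba-a1), and 0 were 2-fold higher. With TMM 1 of 6 B cell, 2 of 6 T and NK cell and 3 of 6 erythroid markers were lower. Nkg7, at 120 and 114 RPKM, made up most of the T and NK cell sum. No marker with a row was at 0 reads in the libraries of 0 and 5 days. The part of these cell types in the levels of the receptors was not tested.

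**Figure D4:**
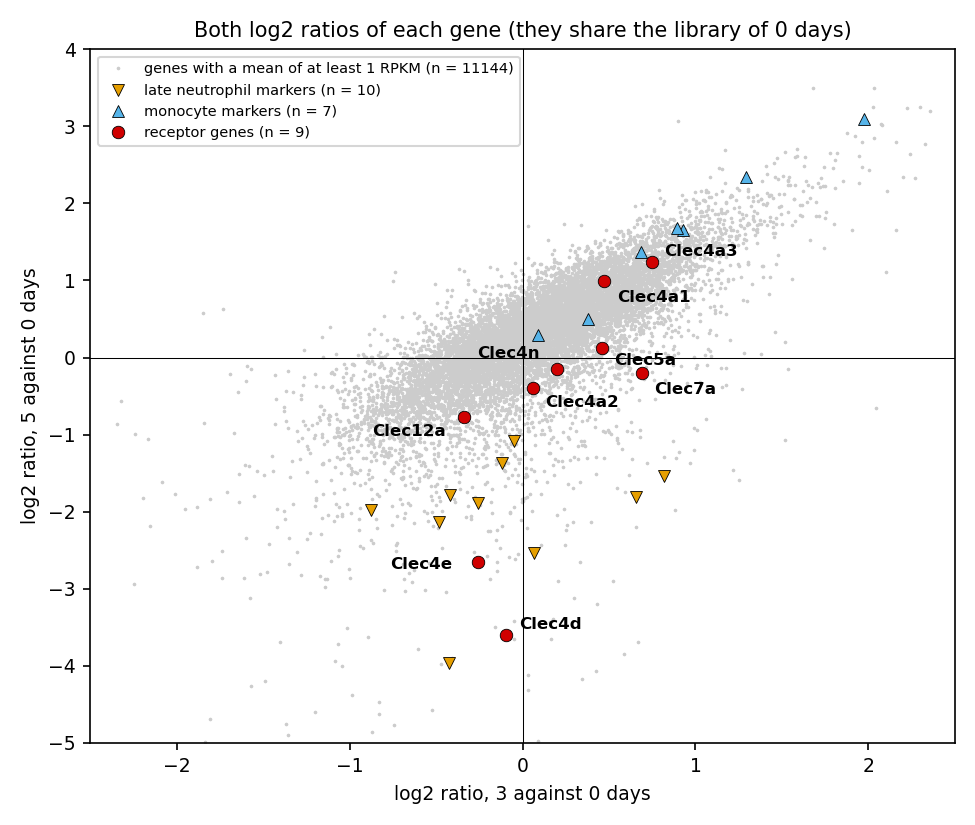
log2 ratio at 5 against 0 days (vertical) and at 3 against 0 days (horizontal) for 11144 genes (grey, 16 lie outside the axes), 10 late neutrophil markers, 7 monocyte markers and the 9 receptor genes (red). Both axes share the library of 0 days. Clec4d and Clec4e lie below most late neutrophil markers, and Clec4a1 and Clec4a3 lie at 0.99 and 1.24 on the vertical axis, among the monocyte markers, which lie between 0.29 and 3.10.

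Genes with the pattern nearest to a member were sought among 8184 genes averaging 5 RPKM or more, by the distance between their pairs of log2 ratios at 3 and 5 days against 0 days. For Clec4d they included Niacr1, Il1f9, Il1b and Gm10872, at distances of 0.07 to 0.31, and 8 genes lay within 0.5. Niacr1 had 56.9, 55.03 and 4.44 RPKM, and Il1b, which encodes interleukin-1 beta, 245, 237 and 22.8 RPKM. For Clec12a, the member with the highest level, the nearest were Rhog, Gm19757, Ffar2, Slc20a1 and Bin3, at 0.02 to 0.05, and 965 genes lay within 0.5. Clec4d was taken for having the largest absolute log2 ratio of the 9 at 5 days, so few near genes follow from that choice. Around Clec4e there were 20 genes within 0.5, and around Clec4a3 there were 1252. These last members were chosen after their values were seen.

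The adaptors of the activating receptors were lower at 5 days than at 0 days. Fcer1g, the adaptor of Clec4d, Clec4e and Clec4n, had 1706, 1307 and 851 RPKM, and its log2 ratio at 5 against 0 days was -1.004 (interval -1.04 to -0.97). Hcst, an adaptor of Clec5a, had 61.0, 38.6 and 16.4 RPKM and a ratio of -1.89 (interval -2.20 to -1.59). Tyrobp had 889, 874 and 560 RPKM and a ratio of -0.67 (interval -0.72 to -0.61). All 3 adaptors were lower at 5 days under TMM and without the length trend as well. Without that trend the ratio of Fcer1g was -0.53 and that of Tyrobp -0.10. Clec4d and Clec4e had ratios below those of their adaptor.

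Syk, the kinase of the pathway, had 117, 162 and 162 RPKM. Its ratio at 5 against 0 days was 0.48 with deposited levels, 0.17 with TMM and -0.20 without the length trend, so its direction depends on the scaling. Of the 21 adaptor and signalling genes, 20 could be tested. At 3 against 0 days 0 were higher and 0 lower, beside 4.08% and 2.41% of all genes. At 5 against 0 days 1 was higher and 2 were lower, beside 15.5% and 5.91%. The higher gene was the exchange factor Vav2, at 1.09, and the lower genes were Fcer1g and Hcst. Vav2 no longer passed 2-fold with TMM (0.79) or without the length trend (0.58), nor did Fcer1g without that trend. At 5 against 3 days 0 were higher and Hcst alone was lower, beside 1.95% and 3.45% of all genes. The median of the 20 was 0.38 at 5 against 0 days, beside 0.31 for all genes, but 0.07 with TMM and -0.12 without the length trend, so no direction is given for the list. The other abundant genes of the list, the kinases Lyn and Prkcd and the phosphatase Ptpn6, which is recruited by ITIMs, had ratios of 0.30, 0.30 and 0.23 at 5 days. With TMM those 3 ratios were -0.01, -0.01 and -0.08, so no direction is given for them.

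**Figure D5:**
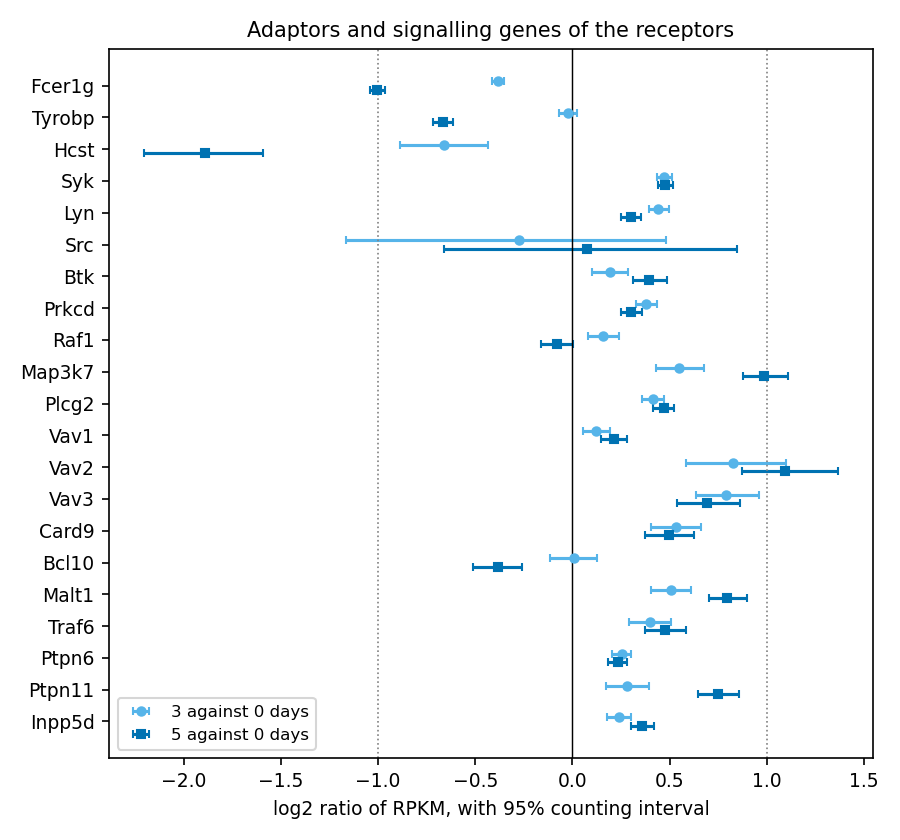
log2 ratio of RPKM for 21 adaptor and signalling genes of the receptors at 3 (light) and 5 (dark) against 0 days, with 95% counting intervals. Dotted lines mark 2-fold. Hcst at -1.89 and Fcer1g at -1.004 lie lowest at 5 days, and Vav2 at 1.09 lies highest. Src was under 1 RPKM in each library.

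Of 10 cytokine and enzyme genes known to be induced through Syk and CARD9, 8 could be tested, and 7 of these had enough reads for a ratio at 5 against 0 days. All 7 were at least 2-fold lower, with deposited levels, with TMM and without the length trend. Of all genes tested, 5.91% were lower with deposited levels. Tnf had 92.0, 60.5 and 6.61 RPKM, Il6 85.5, 38.6 and 10.7 RPKM, and Il23a, which gets no ratio at 5 days, had 61, 22 and 0 reads. At 3 against 0 days, beside 2.41% of all genes, 3 of the 8 were lower, Il6, Il10 and Il23a. That count was 4 with TMM and 2 without the length trend. These genes answer to many other receptors too.

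Of 42 other genes with a C-type lectin domain, 41 had a row and 26 or 27 could be tested. At 3 against 0 days 2 were higher and 2 lower, beside 4.08% and 2.41% of all genes. At 5 against 0 days 5 were higher and 5 lower, beside 15.5% and 5.91%, so the count higher was near the share of all genes. At 5 against 3 days the counts were 1 and 2, beside 1.95% and 3.45%. With TMM the count higher at 5 against 0 days went from 5 to 1. Without the length trend 3 were higher and 3 lower. The 5 higher at 5 days were Clec2i, Ly75, Cd302, Cd93 and Clec11a, and the 5 lower were Cd69, Clec1b, Cd209d, Klrb1b and Selp. Cd69, an early activation marker of lymphocytes, had the lowest ratio of them at -2.84, with 406, 180 and 56.7 RPKM, which is above the ratio of Clec4d and below that of Clec4e. Cd209a, a relative of DC-SIGN, had 10.4, 8.68 and 8.38 RPKM. The others averaging 1 RPKM or more included Clec2d, Clec2g, Clec4b1, Clec4b2, Clec9a, Clec10a, Cd209c, Cd209f, Mgl2, Mrc1, Olr1, Colec12, Thbd, Klrb1c and Klrk1, and these did not pass 2-fold at 5 against 0 days with deposited levels. Without the length trend Clec4b2 passed it, at 1.003. The increases of Ly75 (0.37), Cd93 (0.22) and Clec11a (0.95) and the decreases of Clec1b (-0.97) and Cd209d (-0.99) no longer did. With TMM Clec2i alone of the 5 higher genes still passed 2-fold, at 1.29. Clec11a had 15, 13 and 36 reads.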

How the data were processed

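Flushed BM cells of 3 groups of mice were profiled by mRNA sequencing (Illumina TruSeq, HiSeq 2000), 1 library per time point. The authors deposited, for each pair of time points, the read counts per gene, the RPKM values and the gene length. Quantification was with Cufflinks 1.0.3 per the study's methods, and the build named in the submitters' processing notes is mm8. The aligner and the use of strand are not given in the sources used here. The tables also hold the authors' log2 ratios, P values and FDR, which were not used. RPKM listed where there were no reads was set to 0.

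Ratios are log2((RPKM + 0.1)/(RPKM + 0.1)). Intervals are 95% Clopper-Pearson intervals of the share of the reads that fell in one of 2 libraries. A gene with 3 or fewer reads in a library gets no ratio of its own, but enters the counts over all genes with the pseudocount. Where a symbol had more than 1 row (232 symbols), its most abundant row was kept, and 11 rows without a symbol stayed in the totals. With 1 library per time point no test was run and no P value is given. The intervals cover counting error only, because each time point has 1 library. Reads were amplified by PCR and carry no molecular identifiers, so the intervals can be too narrow even for that error.

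TMM factors (edgeR 4.0.16) and median-of-ratios size factors (DESeq2 1.42.0) were applied to the deposited counts as alternatives. Other alternatives were scaling without the 100 most abundant genes, a lowess of the ratio on log length (span 0.3), pseudocounts of 0.01 and 1 RPKM, a minimum of 5 RPKM, fold thresholds of 1.5 and 4 and the sum of all rows of a symbol. The calls and intervals were tried on simulated counts that held counting error only. Such counts have no spread between mice and no PCR copies, so they cannot show how the intervals do in these libraries. Positions, shared windows and promoters came from GENCODE M21 and RefSeq tables of GRCm38, not from the build of the counts.

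Named were all 9 receptors, signalling genes past 2-fold or averaging 100 RPKM or more, other C-type lectin genes averaging 1 RPKM or more, the 5 nearest patterns for 2 members, and the most abundant markers. Of the genes this rule names, 2 are not reported here. Other genes printed (Clec4a4, Clec11a, Src, the cytokine genes, Retnlg and single markers of other cell types) were chosen after their values were seen. The members and lists were chosen with earlier results of these data known. Python 3.11.15 with pandas 2.3.3, scipy 1.17.1 and statsmodels 0.14.6 was used.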

Additional observations from a re-analysis of the deposited data

How the results depend on the processing

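The main limits are that each time point is 1 library, that mixed marrow cells were sequenced, and that the median log2 ratio of all genes was not 0, while the 10 most abundant rows took 12.5%, 10.4% and 5.38% of the reads. No paired analysis was possible because each time point has 1 library. At 5 against 0 days the number of receptors at least 2-fold higher went from 1 to 0 with TMM, to 0 with median-of-ratios scaling, to 2 at a threshold of 1.5-fold and to 0 at 4-fold, and at 3 against 0 days it went from 0 to 2 at 1.5-fold. The number lower went from 2 to 3 at 5 against 0 days (with Clec12a) and at 5 against 3 days (with Clec7a) under TMM, median-of-ratios scaling and removal of the length trend. The median log2 ratio of the 9 at 5 against 0 days was -0.51 with TMM, -0.50 with size factors by median of ratios, -0.41 with the top 100 genes left out, -0.46 without the length trend and -0.30 at a minimum of 5 RPKM. At 5 against 3 days the first 4 gave -0.66, -0.66, -0.54 and -0.69. The cause of these shifts beyond the change of scale was not tested.

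Single ratios changed sign in 3 cases. At 3 against 0 days Clec4d stood at 0.15 without the length trend, and Clec4a2 at -0.025 with TMM, -0.021 with median-of-ratios scaling, -0.036 with the top 100 genes left out of the scaling and -0.034 without the length trend. At 5 against 0 days Clec5a stood at -0.18, -0.17, -0.076 and -0.43 under those 4. Over the 7 alternatives Clec4d at 5 against 0 days ranged from -3.91 to -3.32, Clec4e from -2.99 to -2.60, Clec4a1 from 0.68 to 0.99 and Clec4a3 from 0.93 to 1.30. TMM and the length trend were also applied to the other gene lists, a choice made after seeing the data. The signalling genes at least 2-fold higher at 5 against 0 days went from 1 to 0 under both, and those lower from 2 to 1 without the length trend. The other C-type lectin genes went from 5 higher to 1 with TMM and to 3 without the trend, and from 5 lower to 3 without the trend. The cytokine and enzyme genes lower at 3 against 0 days went from 3 to 4 with TMM and to 2 without the trend.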
